A study of Arabidopsis thaliana with 18 samples.

Results

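A set of 10 genes of the xyloglucan endotransglucosylase/hydrolase (XTH) family was followed in Arabidopsis thaliana seedlings of the Col-0 accession. They were picked by gene code, and all 10 were among the 14229 genes of the count table. XTH22 (AT5G57560, also TCH4), XTH23 (AT4G25810, also XTR6) and XTH24 (AT4G30270) were taken as touch-type genes. The 7 growth-type genes were XTH4 (AT2G06850), XTH5 (AT5G13870), XTH9 (AT4G03210), XTH17 (AT1G65310), XTH18 (AT4G30280), XTH19 (AT4G30290) and XTH31 (AT3G44990). The seedlings stood in liquid MS medium in 24-well plates at 22 °C with 16 h of light and 8 h of dark. The 3 groups without salt received 1% (v/v) DMSO, 5 µM coronatine or 5 µM DPAM-1 from day 4 after germination. The other 3 groups received the same and, 16 h later, 100 mM NaCl, with harvest 2 h after the salt. With 3 libraries in every group, the 6 groups made 18 libraries. Coronatine is a bacterial toxin that mimics the active jasmonate hormone, and DPAM-1 is given only by its code name, while the title of the series speaks of a pyrazole. That title also names brassinosteroid-related expression and salt sensitivity as the topics of the study. No solvent is named for the compound groups, and for those without NaCl the labels record no mock addition and no hour of harvest. Solvent and compound, and NaCl and the addition or time, therefore cannot be told apart. Labels number the libraries without saying that they came from separate cultures, so p-values measure the spread between libraries that may be technical replicates.

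Xyloglucan is a branched sugar chain that coats and tethers cellulose in the growing plant cell wall. XTH enzymes cut such a chain inside and join the cut end to another chain, so that the wall can yield and be rebuilt, and some members of the family cut it with water instead. Some members are expressed where cells elongate or where xylem is formed, whereas XTH22 is among the genes that rise soon after a plant is touched. Brassinosteroid and auxin, both growth hormones, are also known to raise XTH22.

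The stretches before the annotated starts of XTH22 and XTH23 are shown because these touch-type genes had the largest log2 changes of the 10 genes with DPAM-1. Each is the 250 bases upstream of the start in the RefSeq annotation of TAIR10.1, 5′ to 3′ on the strand of the gene. They lie at chr5:23308681-23308930 on the minus strand and chr4:13128144-13128393 on the plus strand. Capitals mark a W-box, the element bound by WRKY factors, here on the reverse strand.
XTH22: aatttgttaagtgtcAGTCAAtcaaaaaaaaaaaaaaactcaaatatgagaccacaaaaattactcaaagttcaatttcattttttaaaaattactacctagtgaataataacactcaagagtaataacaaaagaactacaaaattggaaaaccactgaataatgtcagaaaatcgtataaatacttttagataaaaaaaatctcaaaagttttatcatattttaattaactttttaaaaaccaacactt
XTH23: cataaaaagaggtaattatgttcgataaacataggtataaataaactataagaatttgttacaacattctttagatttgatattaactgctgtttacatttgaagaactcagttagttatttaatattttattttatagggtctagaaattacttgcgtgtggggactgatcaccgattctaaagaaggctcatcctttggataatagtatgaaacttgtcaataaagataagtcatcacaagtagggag
A second pair is shown because XTH17 and XTH18 share most letters there, and their log2 changes stand side by side in the results. These are the last 100 bases before the start, at chr1:24256954-24257053 on the plus strand and chr4:14827212-14827311 on the minus strand. Capitals mark the run of 73 bases, up to the start, in which the letters were the same.
XTH17: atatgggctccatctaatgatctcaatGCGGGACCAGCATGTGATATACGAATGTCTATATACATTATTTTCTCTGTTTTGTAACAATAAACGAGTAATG
XTH18: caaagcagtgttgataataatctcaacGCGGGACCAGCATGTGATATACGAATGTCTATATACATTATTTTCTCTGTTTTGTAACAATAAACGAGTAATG
Over the 100 bases, 87 were the same without gaps.

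Motifs of 4 kinds were searched on both strands of the 250 bases before XTH22, XTH23 and the 7 growth-type genes and of 14103 genes of the table. The G-box CACGTG stood in 7.59% of all these promoters, the CAMTA-type motif CGCGT in 7.36%, the GCC box GCCGCC in 1.94%, and a W-box, TTGACC or TTGACT, in 27.4%. XTH22 held 1 W-box, at position -235 from the start. XTH18 held 1 W-box at -103 and 1 CAMTA-type match at -75, which overlaps the first letters of the shared run. No match was found before XTH23 or the other 6 growth-type genes, and this says only that those letters are not in these windows. By rising coordinate XTH18 and XTH19 lie in this order on chromosome 4, with 1500 bases between them. Both are on the minus strand, and neither overlaps another annotated gene. Lasy-Seq reads transcripts near their 3′ ends, where a close copy could take reads. In the last 300 bases of the transcripts XTH17 and XTH18 were the most alike at 75.7% identity, and 0 of 251 windows of 50 bases in any member was found in another gene of the family.

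Libraries held 13638981 to 37279056 reads, and within each group the lowest correlation of log2 levels between 2 libraries was 0.982 to 0.992. Levels are CPM, reads scaled to a common library size and corrected for library composition (TMM), so they compare 1 gene between groups and not 1 gene with another. The table held 11 of 13 root markers, 8 of 8 shoot markers and 0 of 5 seed storage genes. Summed root markers lay between 270 and 362 CPM over all libraries and summed shoot markers between 30671 and 40999 CPM. Such a sum can hide single markers that move in opposite directions. In bulk RNA of whole seedlings, fewer cells of a type and less RNA per cell cannot be told apart. Every gene of the table had at least 30 reads in every library, so family members of lower level are outside the results. After each log2 fold change stand its standard error (SE, n = 3 libraries per group) and an adjusted p from edgeR's quasi-likelihood test over all genes. The SE was derived from that test, whose spread was estimated over all 18 libraries, so it is not the spread within the groups compared. A gene is called changed at an adjusted p under 0.05. DPAM-1 and coronatine were compared with the same DMSO libraries, and both interactions with salt use the same 6 DMSO libraries, so these results share their controls. Coronatine libraries differed in composition from the others. Without TMM the median gene moved by -0.23 on the log2 scale in coronatine against DMSO and by -0.33 under NaCl.

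**Figure D1:**
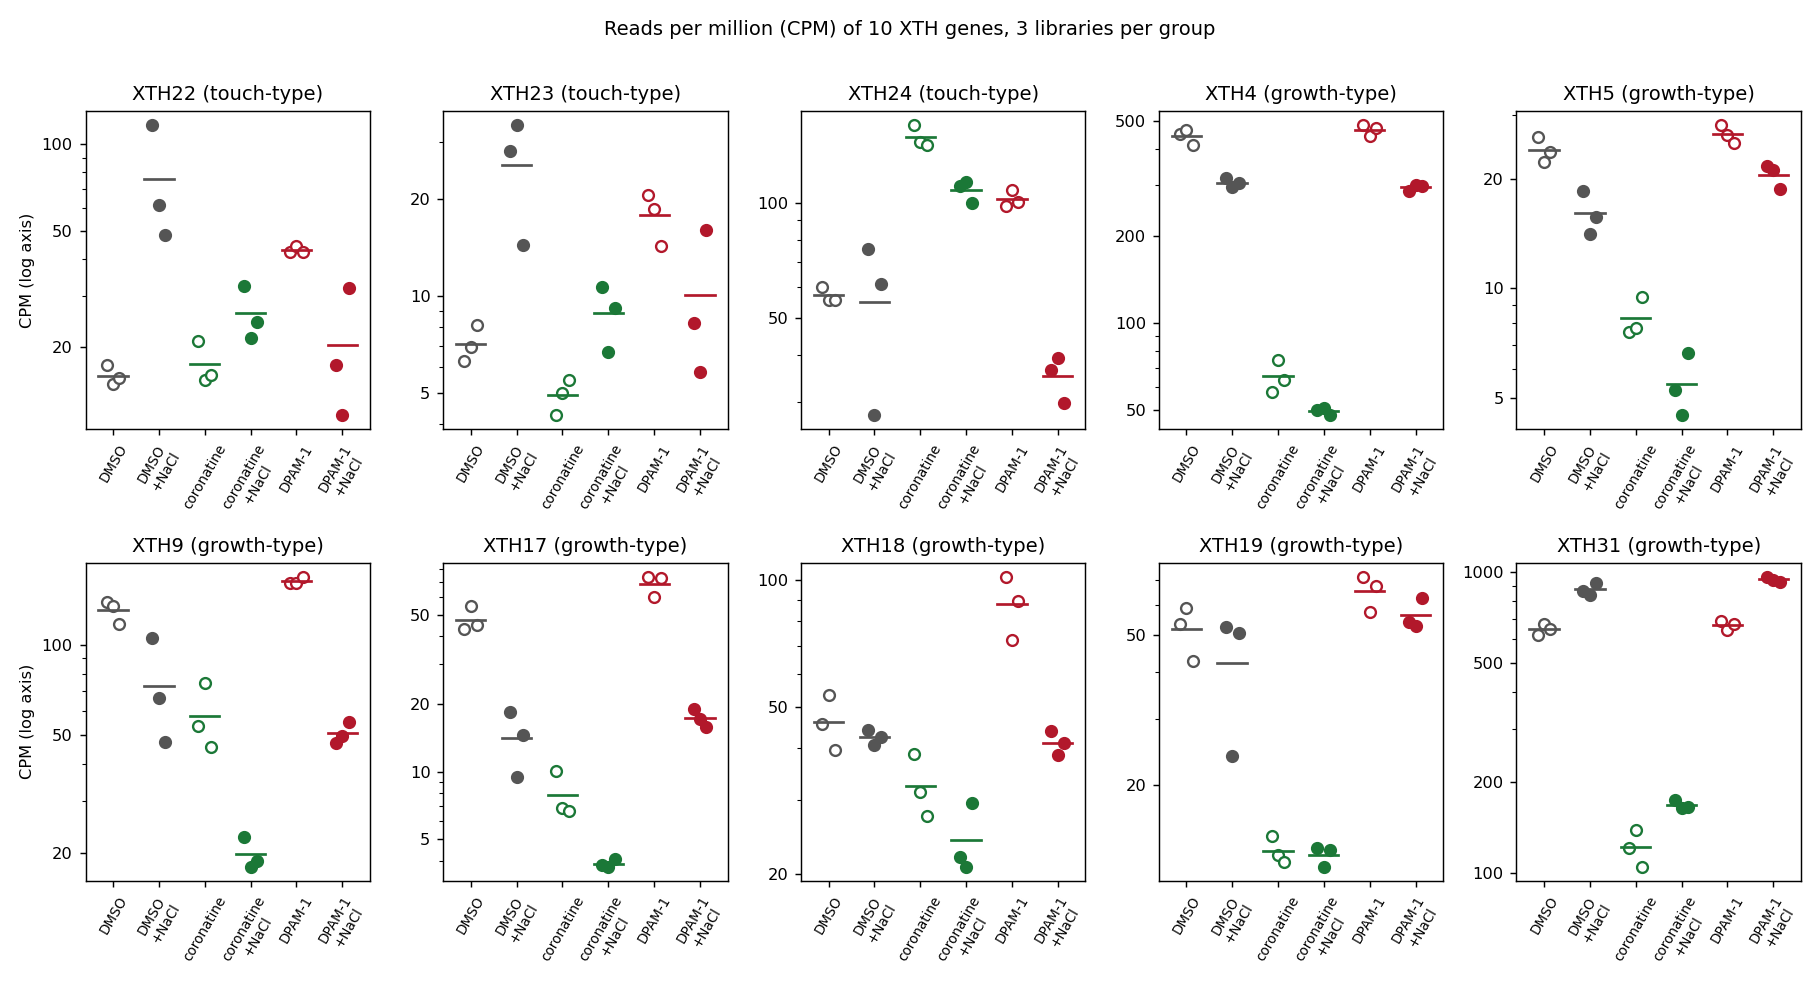
Level of each of the 10 XTH genes in every library, in CPM on a log axis. Open points are libraries without NaCl, filled points libraries with NaCl, and short lines the means of 3 libraries. XTH22 was highest in DMSO with NaCl and second in DPAM-1 without it, whereas XTH4 was lowest in both coronatine groups.

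DPAM-1 alone raised all 3 touch-type genes and 1 of the 7 growth-type genes, XTH18, against DMSO. XTH22 stood at 17.2, 14.8 and 15.6 CPM in the DMSO libraries and at 42.4, 44.6 and 42.3 CPM with DPAM-1. The groups did not overlap, and the 3 DPAM-1 libraries lay within 3 CPM of each other. The log2 fold change was 1.44 ± 0.28 (adjusted p = 0.00791), a 2.71-fold higher level. XTH23, a close relative of XTH22, was at 6.29, 6.92 and 8.10 CPM in DMSO and 20.6, 18.6 and 14.3 CPM with DPAM-1. Its lowest DPAM-1 library, number 3, was above every DMSO library, and the change was 1.32 ± 0.29 (adjusted p = 0.0211). XTH24, first known as the meristem gene MERI5, stood at 59.98, 55.7 and 55.8 CPM in DMSO and 97.8, 108 and 100.2 CPM with DPAM-1. These groups were apart as well, and the log2 fold change was 0.84 ± 0.19 (adjusted p = 0.0341).

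XTH18, known as a gene of the root, was at 45.6, 53.4 and 39.4 CPM in DMSO and 102, 72.2 and 89.4 CPM with DPAM-1. All DPAM-1 libraries were above all DMSO libraries, and the rise was 0.93 ± 0.14 (adjusted p = 0.000806), or 1.90-fold. Its neighbour in sequence, XTH17, was at 43.0, 54.7 and 44.9 CPM and 73.5, 59.9 and 72.8 CPM. These groups did not overlap either, but the log2 difference of 0.53 ± 0.16 (adjusted p = 0.124) did not pass the test over all genes. In the fit of these 2 groups alone XTH17 passed, at 0.53 with an adjusted p of 0.018. XTH9, a gene of xylem and shoot tips, had levels of 138, 135 and 118 CPM and 161, 161 and 168 CPM, apart from each other, with a log2 difference of 0.33 ± 0.18 (adjusted p = 0.434). Log2 differences of the other 4 growth-type genes were 0.07 for XTH4, 0.14 for XTH5, 0.33 for XTH19 and 0.04 for XTH31, with groups that overlapped and 95% intervals that held 0. Those intervals reached at most 0.71, for XTH19.

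Together 4 of the 10 genes were called, all higher, where 1.02% of all genes were called, 0.801% higher and 0.218% lower. With upper-quartile factors 67.6% of all calls were higher, in place of 78.6%. The median log2 difference was 1.32 over the 3 touch-type genes, 0.33 over the 7 growth-type genes and 0.00 over all genes. Of 11 root markers 0 were called higher with DPAM-1 and 1 lower, PRP3 at -0.48 ± 0.10 (adjusted p = 0.0133), while 6 lay above 0. Among those not called, CASP1 was at 0.51, CASP2 at 0.61 and PRP1 at -0.48. Of 8 shoot markers 0 were called. The part of tissue make-up in the XTH rises was not tested. Of the 4 calls 2 did not hold in every repeat with 1 library left out. XTH23 lost its call without DMSO library 1, 2 or 3 or DPAM-1 library 1 or 2, with an adjusted p of up to 0.0974. XTH24 lost it without any 1 of the 6 libraries, with an adjusted p of up to 0.128, and with library totals. XTH22 and XTH18 kept theirs in each of these repeats.

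Coronatine lowered all 7 growth-type genes, left XTH22 and XTH23 without a call and raised XTH24. XTH4, an enzyme of elongating and xylem tissue, fell the most, from 449, 465 and 413 CPM in DMSO to 58.1, 74.7 and 63.6 CPM. The highest coronatine library was far below the lowest DMSO library, and the change of -2.76 ± 0.08 (adjusted p = 1.70e-17) is a 6.76-fold lower level. XTH17 fell from 43.0, 54.7 and 44.9 CPM to 10.03, 6.88 and 6.67 CPM, a log2 change of -2.57 ± 0.18 (adjusted p = 3.86e-11). XTH31, of the branch of the family that holds hydrolases, fell from 619, 673 and 649.7 CPM to 121, 139 and 105 CPM. The groups were far apart, and the change was -2.41 ± 0.08 (adjusted p = 1.05e-16), or 5.31-fold lower.

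XTH19 lay between 42.7 and 59.2 CPM in DMSO and between 12.5 and 14.7 CPM with coronatine, a log2 change of -1.94 ± 0.20 (adjusted p = 2.19e-08). XTH5 lay between 22.3 and 26.1 CPM in DMSO and between 7.58 and 9.45 CPM with coronatine, with a log2 change of -1.55 ± 0.13 (adjusted p = 1.42e-09). XTH9 lay between 118 and 138 CPM in DMSO and between 45.3 and 74.2 CPM with coronatine, and its change was -1.17 ± 0.19 (adjusted p = 2.38e-05). XTH18 had the smallest change of the 7, -0.50 ± 0.14 (adjusted p = 0.00747), from its DMSO levels to 38.6, 31.4 and 27.5 CPM. Its highest coronatine library lay just under its lowest DMSO library of 39.4 CPM. Without DMSO library 2 this call was lost at an adjusted p of 0.0530.

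Touch-type genes did not share this direction. XTH24 rose from 59.98, 55.7 and 55.8 CPM to 159, 144 and 141 CPM, and its lowest coronatine library was far above its highest DMSO library. Its log2 fold change was 1.37 ± 0.20 (adjusted p = 4.40e-06), a 2.59-fold higher level. XTH22 was at 21.0, 15.3 and 16.0 CPM with coronatine, overlapping DMSO, with a log2 difference of 0.15 ± 0.29 (adjusted p = 0.746) and a 95% interval from -0.45 to 0.74, and the difference was -0.08 with library totals without TMM. XTH23 was at 4.28, 4.99 and 5.49 CPM, below all 3 DMSO libraries, with a log2 difference of -0.55 ± 0.32 (adjusted p = 0.199). In the fit of the 2 groups alone the XTH23 difference passed, at -0.54 with an adjusted p of 0.0492. That fit with the library number as a replicate block gave -0.53 with an adjusted p of 0.0225. The labels state no pairing, and the block fit was added after deviations of same-numbered DMSO and coronatine libraries were seen to correlate at 0.127 to 0.497.

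Coronatine thus gave 8 calls among the 10 genes, 1 higher and 7 lower, where 34.8% of all genes were called, 17.4% higher and 17.4% lower. Of all calls 50.1% were higher, 32.5% with upper-quartile scaling and 20.7% by library totals. Median log2 differences were -1.94 over growth-type genes, 0.15 over touch-type genes and -0.01 over all genes. All growth-type falls but that of XTH18 were also past a log2 fold change of 1. Summed root markers were 307 to 347 CPM in DMSO and 318 to 362 CPM with coronatine, with 4 of 11 root markers higher and 6 lower. Summed shoot markers were 30671 to 38695 CPM in DMSO and 36979 to 39961 CPM with coronatine, with 1 of 8 higher and 2 lower. The part of tissue make-up in the XTH falls was not tested.

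DPAM-1 and coronatine, set against each other without NaCl, differed in all 10 genes. DPAM-1 libraries were higher for 9 and lower for XTH24, where 34.9% of all genes were called, 17.4% higher and 17.5% lower. Of those calls 49.9% were higher, 63.0% with upper-quartile scaling and 76.7% by library totals. XTH17 differed most, 3.10 ± 0.18 (adjusted p = 1.44e-12), an 8.57-fold higher level with DPAM-1. XTH4 differed by 2.83 ± 0.08 (adjusted p = 1.86e-17) and XTH31 by 2.45 ± 0.08 (adjusted p = 1.02e-16). Among the touch-type genes XTH23 differed by 1.87 ± 0.30 (adjusted p = 2.48e-05) and XTH22 by 1.29 ± 0.28 (adjusted p = 0.000628). XTH24 was lower with DPAM-1, -0.54 ± 0.19 (adjusted p = 0.0312), a call that was lost with upper-quartile factors, with library totals, with DESeq2 and without coronatine library 1 or DPAM-1 library 1 or 3, at an adjusted p of up to 0.0988.

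**Figure D2:**
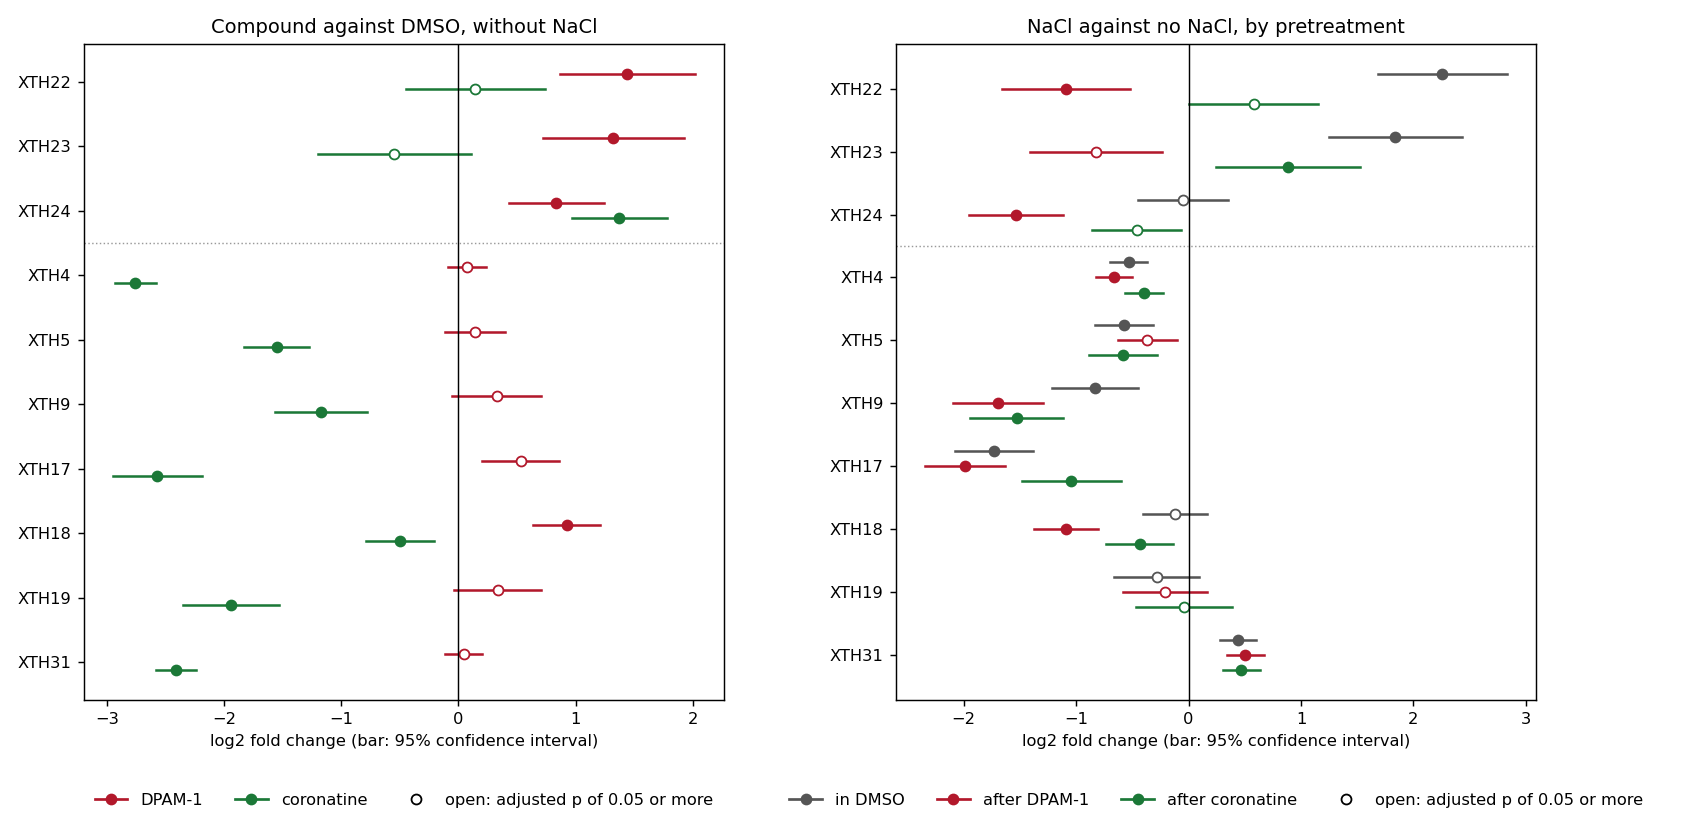
Log2 fold changes of the 10 genes with 95% confidence intervals, for each compound against DMSO without NaCl (left) and for NaCl against no NaCl in each pretreatment (right). Filled points are called and open points are not. For XTH22, NaCl gave 2.26 in DMSO and -1.09 after DPAM-1, whereas for XTH31 it gave 0.44 and 0.51.

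NaCl for 2 h in DMSO seedlings raised XTH22, XTH23 and XTH31 and lowered XTH4, XTH5, XTH9 and XTH17. XTH22 went from at most 17.2 CPM to 116, 61.8 and 48.6 CPM. The lowest salt library was well above every DMSO library, though the 3 salt libraries themselves spread by more than a factor of 2. The change was 2.26 ± 0.28 (adjusted p = 3.20e-06), a 4.78-fold higher level. XTH23 rose to 28.0, 33.8 and 14.4 CPM, with its lowest library in number 3, and the change was 1.84 ± 0.29 (adjusted p = 6.02e-05). XTH24 had no common direction, at 75.5, 27.9 and 61.4 CPM against 55.7 to 59.98 CPM without salt, and its log2 difference was -0.05 ± 0.19 (adjusted p = 0.899). Library 2 decided its sign, since without it the difference was 0.26 with an adjusted p of 0.108.

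XTH17 was lowered the most by salt, to 18.4, 9.44 and 14.6 CPM, with a change of -1.73 ± 0.17 (adjusted p = 1.21e-07). XTH9 fell to 105, 66.5 and 47.4 CPM, all 3 below the lowest DMSO library, and its change was -0.83 ± 0.19 (adjusted p = 0.0027). XTH5 fell by 0.57 ± 0.12 (adjusted p = 0.00224) and XTH4 fell by 0.53 ± 0.08 (adjusted p = 2.68e-05). XTH18 and XTH19 overlapped between the groups, with log2 differences of -0.12 and -0.29. XTH31 was the growth-type gene that rose, to 869, 839.8 and 920.4 CPM, above all its DMSO libraries, by 0.44 ± 0.08 (adjusted p = 0.000282). Salt library 2 was the lowest of the 3 salt libraries for 7 of the 10 genes, XTH4, XTH5, XTH17, XTH18, XTH19, XTH24 and XTH31, but the highest for XTH23.

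Salt alone thus gave 7 calls among the 10 genes, 3 higher and 4 lower, where 17.7% of all genes were called, 9.8% higher and 7.88% lower. Median log2 differences were 1.84 over touch-type genes, -0.53 over growth-type genes and -0.01 over all genes. At a log2 fold change of at least 1 the calls left were XTH22, XTH23 and XTH17.

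Salt after DPAM-1 lowered XTH22, XTH24 and 4 growth-type genes and raised XTH31. XTH22 fell from 42.4, 44.6 and 42.3 CPM to 17.3, 11.6 and 31.9 CPM. All 3 salt libraries were below the DPAM-1 libraries, with library 3 closest to them, and the change was -1.09 ± 0.28 (adjusted p = 0.0098). This call was lost without salt library 1 or without salt library 2, at an adjusted p of up to 0.0683. XTH23 was at 8.25, 5.81 and 16.0 CPM, where library 3 reached into the range of the DPAM-1 libraries, and its log2 difference of -0.82 ± 0.28 (adjusted p = 0.0616) did not pass. It passed in the fit of the 2 groups alone, at -0.83 with an adjusted p of 0.029, and without salt library 3, at -1.31 with an adjusted p of 0.00332. XTH24 fell from between 97.8 and 108 CPM to 36.5, 39.3 and 29.9 CPM, the lowest level of XTH24 in any group mean, a log2 change of -1.53 ± 0.20 (adjusted p = 1.15e-05).

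Among the growth-type genes XTH17 fell from between 59.9 and 73.5 CPM to between 15.9 and 18.9 CPM, a change of -1.99 ± 0.17 (adjusted p = 5.26e-08). XTH9 fell from between 161 and 168 CPM to between 47.0 and 55.0 CPM, a log2 change of -1.70 ± 0.19 (adjusted p = 1.63e-06). XTH18, not called with salt in DMSO, fell from between 72.2 and 102 CPM to 43.7, 38.4 and 41.1 CPM, a log2 change of -1.09 ± 0.14 (adjusted p = 7.88e-06), and so ended at levels that overlapped its DMSO libraries. XTH4 fell by 0.66 ± 0.08 (adjusted p = 2.61e-06), and XTH31 rose by 0.51 ± 0.08 (adjusted p = 8.16e-05) to 964, 946 and 931 CPM. XTH5 at -0.37, with an adjusted p of 0.0597, and XTH19 at -0.21 were not called. XTH5 passed in the fit of the 2 groups alone, with an adjusted p of 0.0135, and with DESeq2, with an adjusted p of 0.0402.

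After DPAM-1, salt thus gave 7 calls among the 10 genes, 1 higher and 6 lower, where 12.2% of all genes were called, 6.92% higher and 5.33% lower. Median log2 differences were -1.09 over touch-type genes, -0.66 over growth-type genes and 0.00 over all genes.

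The difference between these salt effects was tested as an interaction of DPAM-1 with NaCl, which is the salt effect after DPAM-1 minus that in DMSO on the log2 scale. Of the 10 genes 4 passed, all 3 touch-type genes and XTH18, each lower after DPAM-1, where 0.499% of all genes were called, 0.00703% higher and 0.492% lower. The same 4 genes were called higher with DPAM-1 alone. The 3 DPAM-1 libraries without NaCl enter that test, the test of salt after DPAM-1 and this one, so these results are not independent. With salt in DMSO XTH18 and XTH24 had log2 differences of -0.12 and -0.05, and neither was called for DPAM-1 against DMSO under NaCl. XTH22 had an interaction of -3.35 ± 0.39 (adjusted p = 3.37e-05). This is a 10.2-fold difference between a salt change of 2.26 in DMSO and one of -1.09 after DPAM-1. XTH23 had an interaction of -2.66 ± 0.40 (adjusted p = 0.00121) and XTH24 of -1.48 ± 0.28 (adjusted p = 0.00743). These 3 calls were kept in each repeat that left out 1 of the 12 libraries. XTH18 had an interaction of -0.97 ± 0.20 (adjusted p = 0.0144), and this call was lost without DMSO library 3, DPAM-1 library 1 or salt library 2 of DPAM-1, at an adjusted p of up to 0.0704. XTH9 had -0.86 ± 0.26 with an adjusted p of 0.308, and without DMSO salt library 3 its value was -1.10 with an adjusted p of 0.0134. The other 5 growth-type genes had interactions between -0.25 and 0.20. Median interactions were -2.66 over touch-type genes, -0.13 over growth-type genes and 0.01 over all genes.

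Salt after coronatine raised XTH23 and XTH31 and lowered 5 growth-type genes. XTH22 was at 32.4, 21.5 and 24.2 CPM, just above its coronatine libraries, and its log2 difference of 0.58 ± 0.28 (adjusted p = 0.126) did not pass, though in the fit of the 2 groups alone it passed at 0.56 with an adjusted p of 0.0131. XTH23 was at 10.6, 6.70 and 9.14 CPM, above all coronatine libraries, and rose by 0.88 ± 0.31 (adjusted p = 0.038). That call was lost with upper-quartile factors, library totals, DESeq2, and without coronatine library 1, 2 or 3 or coronatine salt library 1 or 3, at an adjusted p of up to 0.169. XTH24 was at 111, 113 and 99.8 CPM, below its coronatine libraries, with -0.46 ± 0.19 (adjusted p = 0.0773), not called. It passed with upper-quartile factors at -0.51 (adjusted p = 0.0474), with library totals at -0.56 (adjusted p = 0.0325) and in the 2 groups alone at -0.48 (adjusted p = 0.00079).

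XTH9 fell to 22.7, 18.1 and 18.9 CPM, its lowest levels of all groups, a log2 change of -1.53 ± 0.20 (adjusted p = 5.19e-06). XTH17 fell to 3.83, 3.77 and 4.06 CPM, also its lowest, a log2 change of -1.04 ± 0.21 (adjusted p = 0.000812). The changes of XTH5, XTH18 and XTH4 were -0.58 ± 0.15 (adjusted p = 0.00505), -0.44 ± 0.14 (adjusted p = 0.0278) and -0.39 ± 0.08 (adjusted p = 0.000954), and XTH31 rose by 0.47 ± 0.08 (adjusted p = 0.000128) to 175, 165 and 165 CPM. The XTH18 call, whose groups overlapped, was lost without coronatine library 1 or coronatine salt library 1 or 2, at an adjusted p of up to 0.183. XTH19 stayed uncalled at -0.04, with a 95% interval from -0.47 to 0.39.

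These are 7 calls among the 10 genes, 2 higher and 5 lower, where 26.8% of all genes were called, 14.7% higher and 12.1% lower. Of all calls 55.0% were higher, 42.8% with upper-quartile scaling and 32.3% by library totals. The interaction of coronatine with NaCl passed for XTH22 alone, -1.68 ± 0.39 (adjusted p = 0.0141), where 3.84% of all genes were called, 1.67% higher and 2.17% lower. Of those 43.4% were higher, 32.9% with upper-quartile scaling and 22.6% by library totals. Without coronatine library 1 the XTH22 call was lost at an adjusted p of 0.0527. XTH23 had -0.96 ± 0.42 (adjusted p = 0.227), and the growth-type genes lay between -0.70 for XTH9 and 0.69 for XTH17. Without DMSO salt library 1 the interaction of XTH17 passed at 0.93, without library 2 that of XTH24 at -0.72, and without library 3 that of XTH9 at -0.93.

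XTH31 rose with salt in all 3 pretreatments, by 0.44, 0.51 and 0.47 on the log2 scale. Its interactions were 0.07 with DPAM-1, with a 95% interval from -0.16 to 0.30, and 0.03 with coronatine, with an interval from -0.20 to 0.26, which turned to -0.02 under upper-quartile scaling and -0.07 by library totals. XTH4 fell in all 3, with log2 changes of -0.53, -0.66 and -0.39 and with interactions of -0.13 and 0.14. XTH9 and XTH17 also fell in all 3.

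Under NaCl, DPAM-1 libraries differed from DMSO libraries in XTH22 and XTH23, both lower, where 0.576% of all genes were called, 0.176% higher and 0.401% lower. XTH22 had a log2 difference of -1.90 ± 0.27 (adjusted p = 0.000679), and the highest DPAM-1 library at 31.9 CPM was below the lowest DMSO library at 48.6 CPM. XTH23 had -1.34 ± 0.28 (adjusted p = 0.02), with groups that overlapped between 14.4 and 16.0 CPM. This call was lost in the fit of the 2 groups alone and without DMSO salt library 1 or 2 or DPAM-1 salt library 1 or 2, at an adjusted p of up to 0.159. XTH24 had -0.65 ± 0.20 (adjusted p = 0.174), not called, and without DMSO salt library 2 it was -0.96 with an adjusted p of 4.75e-05. The growth-type genes lay between -0.54 for XTH9 and 0.41 for XTH19, none called, and without DMSO salt library 3 XTH9 passed at -0.77 with an adjusted p of 0.0177.

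Coronatine under NaCl was called against DMSO in all 10 genes, 1 higher and 9 lower, where 47.8% of all genes were called, 23.8% higher and 24% lower. Of all calls 49.8% were higher, 30.2% with upper-quartile scaling and 17.4% by library totals. Log2 differences were -2.62 ± 0.08 (adjusted p = 2.32e-17) for XTH4, -2.38 ± 0.08 (adjusted p = 7.20e-17) for XTH31 and -1.88 ± 0.20 (adjusted p = 3.86e-08) for XTH17, and they were -1.56, -1.87, -0.81 and -1.69 for XTH5, XTH9, XTH18 and XTH19. XTH22 differed by -1.53 ± 0.27 (adjusted p = 4.48e-05) and XTH23 by -1.50 ± 0.28 (adjusted p = 9.33e-05), and neither had been called without salt in the fit over all libraries. XTH24 was again the gene that was higher, 0.96 ± 0.19 (adjusted p = 0.000241).

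DPAM-1 against coronatine under NaCl gave 7 genes higher, all growth-type, and XTH24 lower, where 42.4% of all genes were called, 20.9% higher and 21.4% lower. Of all calls 49.4% were higher, 68.3% with upper-quartile scaling and 82.1% by library totals. The growth-type differences ran from 0.77 ± 0.14 for XTH18 to 2.56 ± 0.08 for XTH4, each with an adjusted p of at most 0.000123. XTH24 differed by -1.61 ± 0.20 (adjusted p = 5.07e-07). XTH22 at -0.37 ± 0.28 (adjusted p = 0.302) and XTH23 at 0.16 ± 0.29 (adjusted p = 0.698) were not called, with 95% intervals from -0.95 to 0.20 and from -0.45 to 0.77. Without DPAM-1 salt library 3 XTH22 passed at -0.84 with an adjusted p of 0.0181, and XTH23 was at -0.33.

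**Figure D3:**
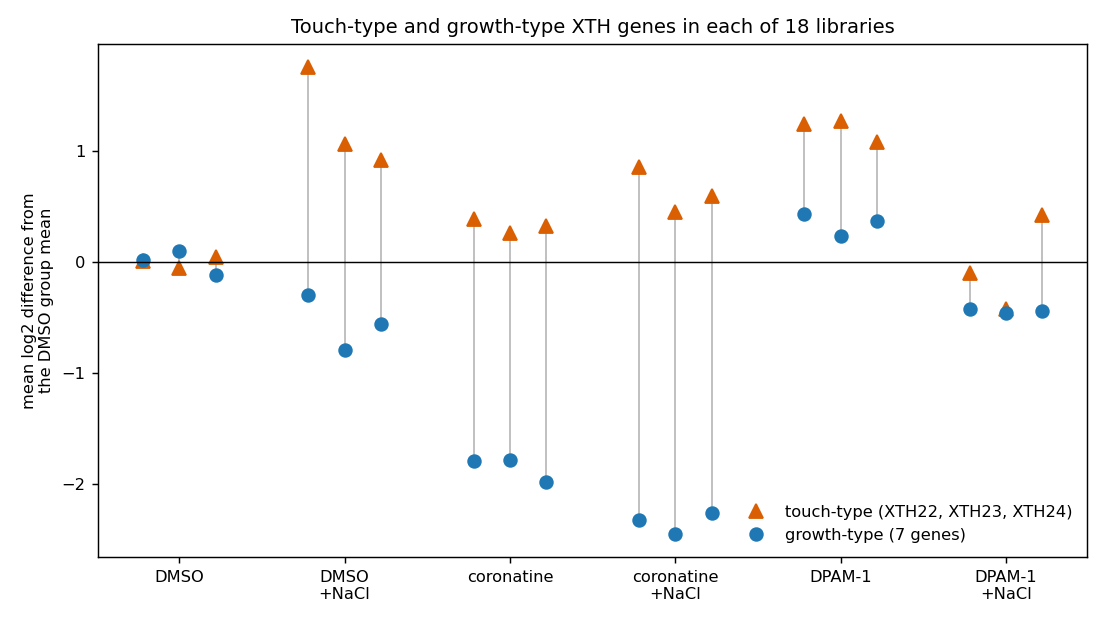
Mean log2 difference from the DMSO group mean over the 3 touch-type genes (triangles) and the 7 growth-type genes (circles) in each of the 18 libraries, joined by a line per library. With DPAM-1 both lay above 0, with coronatine they lay on either side of it, and with DPAM-1 and NaCl the gap was 0.04 to 0.86.

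The 2 types were set beside each other in every library as the mean log2 difference from the DMSO group, a description with no test. With salt in DMSO the touch-type mean was 1.75, 1.06 and 0.91 and the growth-type mean -0.30, -0.79 and -0.56. With coronatine the touch-type mean was 0.39, 0.26 and 0.32, carried by XTH24, and the growth-type mean -1.79, -1.79 and -1.98. With DPAM-1 the touch-type mean was 1.24, 1.27 and 1.08 and the growth-type mean 0.43, 0.23 and 0.37. The touch-type mean was thus above the growth-type mean in all of these libraries. With salt after DPAM-1 the touch-type mean was -0.10, -0.42 and 0.42 and the growth-type mean -0.43, -0.47 and -0.44, so that the gaps were 0.33, 0.04 and 0.86. The gap of library 3 was wider than those of DPAM-1 libraries 1 and 3, at 0.81 and 0.71. With salt after coronatine the means were 0.86, 0.45 and 0.60 for touch-type and -2.33, -2.45 and -2.27 for growth-type genes.

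The order of the groups, from highest to lowest mean, differed between the touch-type genes. XTH22 and XTH23 were both highest in DMSO with NaCl, with means of 75.6 and 25.4 CPM, and second in DPAM-1, with 43.1 and 17.9 CPM. For XTH22 these 2 groups were apart from each other and from the rest, and the other 4 overlapped with their neighbours. For XTH23 the first 5 groups overlapped each with the next, and coronatine alone was lowest at 4.92 CPM. XTH24 was highest in coronatine, 148 CPM, then in coronatine with NaCl, 108 CPM, which overlapped DPAM-1 at 102 CPM, and lowest in DPAM-1 with NaCl at 35.2 CPM. Among growth-type genes XTH4, XTH5, XTH9, XTH17, XTH18 and XTH19 were highest in DPAM-1 and lowest in coronatine with NaCl, and the ratio of these means ran from 3.63 for XTH18 to 17.7 for XTH17. The highest group overlapped the next for XTH4, XTH5 and XTH19, and the lowest overlapped coronatine alone for XTH18 and XTH19. XTH31 was highest in DPAM-1 with NaCl, 947 CPM, and lowest in coronatine, 122 CPM.

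**Figure D4:**
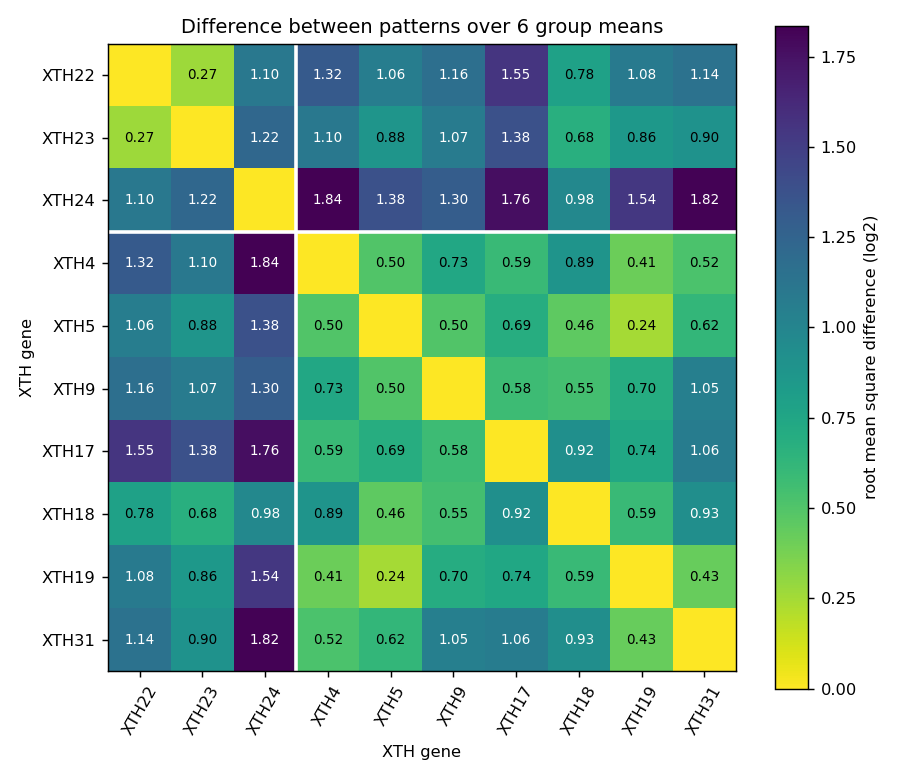
Root mean square difference between the patterns of each pair of genes, in log2 units over 6 group means centred on the mean of each gene, darker for less alike. White lines divide touch-type from growth-type genes. XTH22 and XTH23 differ by 0.27, whereas both differ from XTH24 by over 1.

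Patterns were compared as the root mean square difference of the 6 group means of log2 CPM, each centred on the mean of its own gene. Of the 45 pairs, XTH5 and XTH19 were the most alike at 0.24, followed by XTH22 and XTH23 at 0.27. XTH24 differed from XTH22 by 1.103 and from XTH23 by 1.22, and from XTH4 by 1.84, the largest of all pairs. Of the growth-type genes XTH18 was the closest to XTH22 and XTH23, at 0.78 and 0.68. XTH17 and XTH18 differed by 0.92, and XTH18 and XTH19, neighbours on the chromosome, by 0.59. Over the whole table, the genes most like XTH22 were AT4G27280, a calcium-binding EF-hand protein, at 0.25, XTH23 at 0.27, and MYB77, a transcription factor of the MYB family, at 0.28. Those most like XTH4 were AT1G67910, an uncharacterized protein, at 0.076, AT3G45160, annotated as a putative membrane lipoprotein, at 0.14, and AT1G29660, of the GDSL-like lipases, at 0.15. The points of these comparisons share their libraries, so the values are descriptions.

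Of the 23 other genes of the XTH family 11 were in the table. DPAM-1 gave 0 calls of 11, where 1.02% of all genes were called, and its interaction with salt 0 of 11, where 0.499% were. At an unadjusted p under 0.05 stood 4 and 2 of the 11, and 2021 and 809 of all 14229 genes. With DPAM-1 these were XTH12, XTH14 and XTH15, which were lower, and XTH16, which was higher. Coronatine lowered 8 of 11 and raised XTH14, where 17.4% of all genes were lower and 17.4% higher. XTH8 was at -1.76 ± 0.11 (adjusted p = 8.24e-12), XTH28 at -1.08 ± 0.10 (adjusted p = 2.35e-09) and XTH14 at 0.47 ± 0.12 (adjusted p = 0.00295). Salt in DMSO raised XTH32 and XTH20 and lowered 4, where 9.8% of all genes were higher and 7.88% lower. Among the lowered genes XTH8 was at -1.18 ± 0.11 (adjusted p = 6.37e-08) and XTH27 at -0.62 ± 0.10 (adjusted p = 7.09e-05). After DPAM-1 salt lowered 4 and raised XTH32, where 5.33% of all genes were lower and 6.92% higher. Among the lowered genes XTH8 was at -1.29 ± 0.11 (adjusted p = 6.00e-08) and XTH27 at -0.90 ± 0.10 (adjusted p = 1.20e-06). After coronatine salt lowered 7 and raised XTH20, where 12.1% of all genes were lower and 14.7% higher. XTH8 was at -1.03 ± 0.13 (adjusted p = 1.98e-06), XTH12 at -1.07 ± 0.21 (adjusted p = 0.000562) and XTH20 at 1.05 ± 0.14 (adjusted p = 6.14e-06). Under NaCl DPAM-1 gave 0 calls against DMSO, where 0.576% of all genes were called. At an unadjusted p under 0.05 were 2 of the 11 there, and 1430 of all 14229 genes. Coronatine under NaCl gave 6 lower and XTH20 higher, where 24% of all genes were lower and 23.8% higher. The 6 were led by XTH28 at -1.68 ± 0.10 (adjusted p = 8.38e-13) and XTH8 at -1.62 ± 0.12 (adjusted p = 9.53e-11). The interaction with coronatine passed for XTH28 and XTH30, both lower where 2.17% of all genes were, at -0.60 ± 0.14 (adjusted p = 0.0117) and -0.88 ± 0.24 (adjusted p = 0.0405).

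Enzymes that build xyloglucan were measured for 12 of 14 listed genes, and those that trim its side chains for 3 of 3. With DPAM-1, where 0.218% of all genes were lower, 1 of the 12 fell, CSLC5, a backbone synthase, at -0.59 ± 0.14 (adjusted p = 0.0369). Coronatine lowered 7 and raised AXY4, which acetylates the side chains, where 17.4% of all genes were lower and 17.4% higher. CSLC4, another backbone synthase, was at -0.67 ± 0.12 (adjusted p = 7.72e-05) and XXT2, a xylosyltransferase, at -0.32 ± 0.08 (adjusted p = 0.00317). AXY4 was at 0.46 ± 0.10 (adjusted p = 0.000893). All 3 trimming genes were lower with coronatine, AXY8, a fucosidase, at -1.12 ± 0.09 (adjusted p = 6.26e-10) and BGAL10, a galactosidase, at -0.74 ± 0.13 (adjusted p = 5.64e-05). Salt lowered 5 of the 12 in DMSO, where 7.88% of all genes were lower, with XXT5 at -0.41 ± 0.09 (adjusted p = 0.00325) and XXT2 at -0.27 ± 0.08 (adjusted p = 0.0216), and 4 after DPAM-1, where 5.33% were lower. XXT1, of the same enzyme family, was the 1 gene of this list with a DPAM-1 interaction, where 0.492% of all genes were lower. Its interaction was -1.20 ± 0.26 (adjusted p = 0.0233), and after DPAM-1 its change with salt was -0.98 ± 0.19 (adjusted p = 0.00079). After coronatine salt raised 1 of the 12, XLT2, a galactosyltransferase, by 1.14 ± 0.18 (adjusted p = 6.73e-05), and lowered 1. Of all genes 14.7% were higher there and 12.1% lower. The interactions of XXT5 and XLT2 with coronatine passed at 0.59 ± 0.13 (adjusted p = 0.0122) and 0.95 ± 0.25 (adjusted p = 0.0331), where 1.67% of all genes were higher. Under NaCl coronatine raised 2 of the 12 against DMSO and lowered 2, where 23.8% of all genes were higher and 24% lower.

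The 3 touch genes outside the family were TCH1, TCH2 and TCH3, which encode calmodulin or calmodulin-like calcium sensors. TCH3 and XTH22 were both called, in the same direction, in 6 of the 11 comparisons, several of which share libraries. That count was made for TCH3 alone and not for TCH1 or TCH2, and how often other genes share the calls of XTH22 was not counted. Values of TCH3 were 1.82 ± 0.19 (adjusted p = 5.68e-06) for DPAM-1, 1.61 ± 0.19 (adjusted p = 1.28e-06) for salt in DMSO, -0.57 ± 0.18 (adjusted p = 0.0393) for salt after DPAM-1, with a DPAM-1 interaction of -2.18 ± 0.26 (adjusted p = 3.42e-05). They were 2.27 ± 0.19 (adjusted p = 9.12e-10) for DPAM-1 against coronatine without NaCl and -1.25 ± 0.18 (adjusted p = 4.27e-06) for coronatine against DMSO under NaCl. In 2 comparisons XTH22 was called and TCH3 was not, the coronatine interaction, with -0.81 ± 0.26 (adjusted p = 0.0924) for TCH3, and DPAM-1 against DMSO under NaCl, with -0.36 ± 0.18 (adjusted p = 0.514). In 2 others TCH3 was called and XTH22 was not, salt after coronatine, with 0.81 ± 0.19 (adjusted p = 0.00286), and DPAM-1 against coronatine under NaCl, with 0.89 ± 0.18 (adjusted p = 0.000345). Neither TCH1 nor TCH2 was called with DPAM-1 or with salt in DMSO. TCH2 fell with salt after DPAM-1 by 0.56 ± 0.16 (adjusted p = 0.0251), and TCH1 was lower with coronatine, at -0.51 ± 0.11 (adjusted p = 0.000835).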

How the data were processed

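The authors deposited a table of raw counts, the reads of each gene, and another deposited table of normalized signal in which each library's values are its counts over a single factor. Counts gave every result, and the signal table served only for that check. Per the submitters' processing notes bcl2fastq, Trimmomatic, HISAT2, featureCounts and DESeq2 were used with the TAIR10 build. Their roles and versions are not given in the sources used here. Per the labels' protocols libraries were made with Lasy-Seq v1.1. Every gene had at least 30 reads in each library, so genes of low expression are not analysed here.

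The members and lists were chosen with earlier results of these data known. Counts were fitted in R 4.3.3 with edgeR 4.0.16 (limma 3.58.1 loaded with it) as 1 quasi-likelihood model with 6 group means over all 18 libraries. Its expression filter kept all 14229 genes, TMM factors lay between 0.847 and 1.13, and the biological coefficient of variation was 10.4%. Two-sided p-values of each of 11 comparisons were adjusted by Benjamini-Hochberg over 14229 genes and called under 0.05. Reads carry no molecular identifiers, so intervals and SEs rest on the spread between libraries. The procedure was tested on simulated data for DPAM-1 against DMSO without NaCl alone, with independent libraries and as many genes raised as lowered. Interactions and a shift in composition such as that of the coronatine libraries were not covered. Library totals lay between 13638981 and 37279056 reads.

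All 10 members are named in the text, with up to 2 called members of smallest p per direction of each further list and the 3 genes most like XTH22 and XTH4 in pattern (prior count 1 in log2 CPM). Gene codes were matched to RefSeq TAIR10.1, which held 14105 of them, with Biopython 1.88. Its coordinates are those of TAIR10.1, which shares its nuclear chromosome sequence with TAIR10, and the deposited tables give no coordinates. The promoter sequence of 1 member is not reported here.

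Alternatives were RLE and upper-quartile factors, library totals, no filter, a mean count of at least 100, a minimum log2 fold change of 1, the compared groups alone, the replicate number as a block, DESeq2 1.42.0 and each library left out. Labels do not say that equal numbers belong together. Of 45 same-number pairs, the 3 of DMSO with coronatine without NaCl had deviations that correlated over 0.1, between 0.127 and 0.497. The numbers were tried as pairing there, though the labels do not state it. The 2-group fit with the block was added after seeing the data.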

Additional observations from a re-analysis of the deposited data

Results flagged for a closer look

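Salt responses that differed between pretreatments, by the interaction test against DMSO, were found for 4 genes with DPAM-1 and 1 with coronatine. With DPAM-1 the interaction was -3.35 for XTH22 (adjusted p = 3.37e-05), -2.66 for XTH23 (adjusted p = 0.00121), -1.48 for XTH24 (adjusted p = 0.00743) and -0.97 for XTH18 (adjusted p = 0.0144). With coronatine it was -1.68 for XTH22 (adjusted p = 0.0141). The tests are edgeR's, over all genes, with 3 libraries per group, and both interactions share the same DMSO libraries. Each interaction also shares its compound libraries without NaCl with the test of that compound against DMSO. No group had enough libraries for a test of single outlying libraries.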

How the results depend on the processing

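Of 1000 values of single genes under other settings 960 kept their direction and their side of the threshold, 27 lost the call, 10 gained it and 3 changed sign. The filter had kept all 14229 genes, so the setting with no filter was the same fit and its 110 values could not change. The minimum log2 fold change of 1 reused the main fit, so it could only lose calls, and it lost 19. The replicate block over all libraries changed 0 of 110 calls, for example XTH22 with DPAM-1 at 1.46, and in the 2 groups alone XTH23 passed for coronatine with the replicate block, at -0.53, as without it, at -0.54. A log2 fold change of at least 1 left 2 members called for DPAM-1 against DMSO, 3 for salt in DMSO and 2 for salt after coronatine, and the groups alone left 1 for DPAM-1 against DMSO under NaCl. Over all comparisons the groups alone gained 6 calls of single genes and lost 1. Signs changed for the coronatine interaction of XTH31 (-0.0160 with upper-quartile factors, -0.0664 with library totals) and for XTH22 with coronatine (-0.0838 with library totals).

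With 1 library left out, 721 of 780 values kept direction and side, 33 lost the call, 8 gained it and 18 changed sign. A lone pair of libraries was then assumed to vary like the other groups. Members called ranged from 2 to 3 for DPAM-1 against DMSO, 0 to 2 for the coronatine interaction and 1 to 3 for DPAM-1 against DMSO under NaCl. Values that changed sign, none of them called, ranged from -0.199 to 0.263 (XTH19, DPAM-1 interaction), and for the coronatine interaction from -0.162 to 0.106 (XTH5), -0.0292 to 0.433 (XTH19) and -0.0648 to 0.135 (XTH31). They ranged from -0.352 to 0.261 for XTH24 with salt in DMSO, -0.0220 to 0.235 for XTH22 with coronatine, -0.0809 to 0.0400 for XTH19 with salt after coronatine, -0.0923 to 0.00238 for XTH18 with DPAM-1 under NaCl and -0.327 to 0.417 for XTH23 between DPAM-1 and coronatine under NaCl. Their cause was not tested.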
